A study of Mus musculus with 7 samples.

Results

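The proteasome subunit genes of overloaded mouse plantaris muscle were examined, as every gene whose only symbol in the array's platform annotation was Psma, Psmb, Psmc, Psmd or Psme followed by digits. This gave 42 of the 18193 genes measured. Of these, 38 were constitutive proteasome genes and 4 belonged to the immunoproteasome (Psmb8, Psmb9, Psmb10 and Psme1). Psme2, the partner of Psme1, was represented by 1 probe set that the annotation assigns to more than 1 gene, and was not analysed here. Where a gene had several probe sets, as 22 of the 42 did, the brightest on average over the 7 arrays stands for it.

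The muscles came from Pax7-DTA mice aged 4 months (parental strains Pax7-CreER and Rosa26-DTA), whose Cre is driven by Pax7, a gene of muscle stem cells (satellite cells). Tamoxifen activates that Cre and with it diphtheria toxin A, which kills the cells. Every mouse carried these alleles, vehicle controls included, so that no wild-type muscle was compared. Total RNA was hybridised to 7 Affymetrix arrays: tamoxifen overload (n = 3, 2 male and 1 female), vehicle overload (n = 2, 1 male and 1 female), tamoxifen sham (n = 1, male) and vehicle sham (n = 1, male). Overload lasted 1 week and was produced by synergist ablation, in which neighbouring muscles that assist the plantaris are cut away. The titles read as single mice while the design text speaks of muscles pooled from 11 animals, so the animals behind an array are uncertain, and p-values measure only the spread between these arrays. Pax7 signal was 57.9, 9.97 and 120.4 on the tamoxifen overload arrays, against 273.8 and 348.8 on the vehicle overload arrays, and 41.2 for tamoxifen sham against 92.8 for vehicle sham.

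The proteasome degrades proteins that carry ubiquitin chains. Its barrel-shaped core particle has outer rings of alpha subunits, which form the gate, and inner rings of beta subunits, of which Psmb5, Psmb6 and Psmb7 hold the protease sites. A regulatory particle caps the barrel: its base ATPases (Psmc) unfold substrates and its lid removes ubiquitin. In immune cells, and in other cells after interferon, Psmb8, Psmb9 and Psmb10 take the places of Psmb5, Psmb6 and Psmb7, and Psme1 with Psme2 forms an activator cap; this immunoproteasome makes peptides for MHC class I presentation. In skeletal muscle the proteasome is best known for protein breakdown during atrophy.

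The 300 bases around the annotated starts of the immunoproteasome genes and of 2 of the replaced subunits are shown because these genes did not move alike under overload. The sequences are RefSeq's, build GRCm38.p6, and run from 250 bases before the start to 50 after. Capitals mark matches, on either strand, to 4 motifs: the interferon-stimulated response element (searched as GAAA, any 2 bases and GAAA again), the interferon-gamma activated site TTCNNNGAA, the antioxidant response element TGACNNNGC and the box CCAAT. No matches overlapped.
Psmb8, chr17:34197945-34198244, plus strand: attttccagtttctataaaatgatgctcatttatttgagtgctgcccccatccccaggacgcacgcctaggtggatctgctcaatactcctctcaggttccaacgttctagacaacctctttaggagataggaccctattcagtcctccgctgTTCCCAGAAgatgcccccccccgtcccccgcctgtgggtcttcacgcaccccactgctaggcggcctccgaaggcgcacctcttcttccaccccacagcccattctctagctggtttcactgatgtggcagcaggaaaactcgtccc
Psmb9, chr17:34187281-34187580, minus strand: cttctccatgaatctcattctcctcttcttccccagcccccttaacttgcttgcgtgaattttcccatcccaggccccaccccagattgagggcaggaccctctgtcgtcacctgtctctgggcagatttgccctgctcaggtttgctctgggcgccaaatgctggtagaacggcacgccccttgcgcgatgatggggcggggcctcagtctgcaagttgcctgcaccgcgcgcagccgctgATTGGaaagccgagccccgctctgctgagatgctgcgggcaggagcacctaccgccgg
Psmb10, chr8:105938343-105938642, minus strand: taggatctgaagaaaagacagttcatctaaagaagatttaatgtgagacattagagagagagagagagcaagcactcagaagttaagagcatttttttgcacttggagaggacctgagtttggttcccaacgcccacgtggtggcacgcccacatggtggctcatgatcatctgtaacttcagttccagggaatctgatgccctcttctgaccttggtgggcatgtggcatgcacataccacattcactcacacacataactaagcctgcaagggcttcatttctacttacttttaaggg
Psme1, chr14:55578244-55578543, plus strand: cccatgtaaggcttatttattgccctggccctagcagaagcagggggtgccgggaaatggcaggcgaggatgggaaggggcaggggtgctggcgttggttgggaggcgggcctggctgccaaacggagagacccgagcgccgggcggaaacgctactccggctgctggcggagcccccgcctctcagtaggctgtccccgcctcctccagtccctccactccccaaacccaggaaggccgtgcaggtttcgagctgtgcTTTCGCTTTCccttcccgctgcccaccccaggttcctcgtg
Psmb5, chr14:54617946-54618245, minus strand: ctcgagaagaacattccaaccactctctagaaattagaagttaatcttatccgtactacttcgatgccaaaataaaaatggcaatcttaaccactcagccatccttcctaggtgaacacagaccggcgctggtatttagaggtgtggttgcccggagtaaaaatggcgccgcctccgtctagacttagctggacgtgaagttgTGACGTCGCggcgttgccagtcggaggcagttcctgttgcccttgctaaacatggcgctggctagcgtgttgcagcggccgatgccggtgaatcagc
Psmb6, chr11:70525107-70525406, plus strand: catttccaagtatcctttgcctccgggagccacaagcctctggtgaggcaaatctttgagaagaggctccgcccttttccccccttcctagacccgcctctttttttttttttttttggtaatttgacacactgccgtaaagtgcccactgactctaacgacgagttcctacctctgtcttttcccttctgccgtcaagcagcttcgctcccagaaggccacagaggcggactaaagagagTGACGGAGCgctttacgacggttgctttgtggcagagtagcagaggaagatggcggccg

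Positions are counted from 0 at the annotated start to the first letter of the match as printed. The Psmb8 window held a match to the gamma activated site motif at -97. That motif was in 1 of 33 windows of constitutive proteasome genes (Psmd2, 3.03%) and in 8.30% of all 32851 windows. The Psme1 window held a match to the stimulated response element motif at 9, on the strand opposite to the one printed. That motif was also in 3 of the 33 constitutive windows (Psmb3, Psmd4 and Psmd9; 9.09%) and in 3.44% of all windows. The Psmb9 window held a CCAAT box at -8, also on the opposite strand (37.4% of all windows), and shared 275 of its bases with the window of Tap1, which is read in the opposite direction and encodes a peptide transporter of MHC class I presentation. On chromosome 17 the annotation places Psmb8 between Tap1 and Tap2. The Psmb5 and Psmb6 windows held matches to the antioxidant element motif at -47 and -9. That motif was in 6 of the 33 constitutive windows (18.2%) and in 12.4% of all windows. A CCAAT box was in 13 of those 33 (39.4%). None of the 4 motifs was in the Psmb10 window. Windows were found for 35 of the 42 genes.

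Levels are given as the deposited signal, a linear intensity, and differences on the log2(signal + 1) scale. A signal of 54.8 was taken as background, the 95th percentile of the mean level over 75 olfactory, vomeronasal and taste receptor genes. Of the 42 genes, 40 lay above it on all 7 arrays. The exceptions, below it on all 7, were Psma8, an alpha subunit of germ cells, and Psmb11, a beta subunit of the thymic cortex (signals from 2.38 to 32.9). The constitutive genes above background had signals between 467 and 22916, and the immunoproteasome genes between 185 and 2641. The arrays had median signals from 88.2 to 127.7, and precision is limited by how few arrays there are. A gene was called at an adjusted p under 0.05 (limma, Benjamini-Hochberg over 18193 genes), in a model with the 4 groups and sex.

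The first comparison asked what 1 week of overload did to these genes, averaged over tamoxifen and vehicle. Overload raised 2 of the 4 immunoproteasome genes, Psmb8 by 2.35-fold and Psmb10 by 1.66-fold. Among the 38 constitutive genes 3 rose (the assembly chaperones Psmd5 and Psmd10, and the lid subunit Psmd13) and 1 fell (the activator Psme4). None of the 7 alpha, 7 constitutive beta or 6 base ATPase genes was called. The 4 constitutive calls are 10.5% of the 38, while 22.9% of all genes tested were called (14.7% higher and 8.16% lower).

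**Figure D1:**
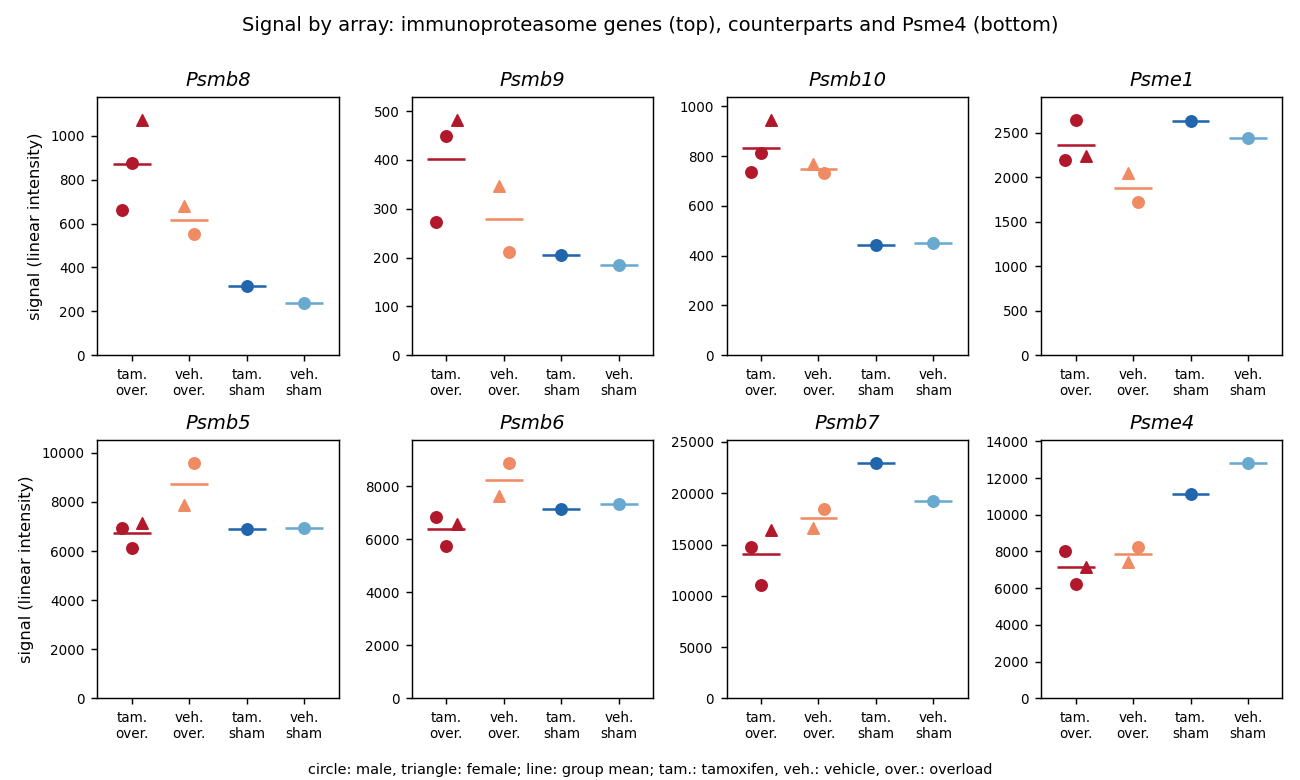
Signal (linear intensity) on each array for the 4 immunoproteasome genes (top) and for Psmb5, Psmb6, Psmb7 and Psme4 (bottom), with groups along the horizontal axis, circles for males, triangles for females and a line at each group mean. For Psmb8, Psmb9 and Psmb10 every overload array lies above both sham arrays, and for Psmb7 and Psme4 every overload array lies below both.

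Psmb8, the counterpart of Psmb5, had signals of 662, 878 and 1072 on the tamoxifen overload arrays and 679 and 553 on the vehicle overload arrays, against 314 for tamoxifen sham and 238 for vehicle sham. The 5 overload arrays all lay above both sham arrays, as they did for 23.1% of all genes. The difference was 1.23 ± 0.19 (log2, SE; adjusted p = 0.00317). It was 1.30 within tamoxifen (adjusted p = 0.0114) and 1.16 within vehicle (adjusted p = 0.0352), each against 1 sham array that is assumed to vary like the other arrays.

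Psmb10, the counterpart of Psmb7, had signals of 736, 813 and 945 with tamoxifen overload and 767 and 731 with vehicle overload, against 443 for tamoxifen sham and 452 for vehicle sham. The groups did not overlap, and the 2 sham arrays were close together. The difference was 0.73 ± 0.16 (log2, SE; adjusted p = 0.0136), with 0.84 within tamoxifen (adjusted p = 0.0313) and 0.63 within vehicle (adjusted p = 0.134). The pooled call was lost without vehicle overload replicate 2 (0.64, adjusted p = 0.136), without the tamoxifen sham array (0.63, adjusted p = 0.130) and with each array centred on its median (0.44, adjusted p = 0.0887).

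Psmb9, the counterpart of Psmb6, had signals of 274, 449 and 482 with tamoxifen overload and 346 and 211 with vehicle overload, against 205 for tamoxifen sham and 185 for vehicle sham. The lowest overload array, vehicle overload replicate 2, was only just above the sham arrays. The difference of 0.50 ± 0.26 (log2, SE) was not called (adjusted p = 0.226). It was 0.26 after quantile normalization (adjusted p = 0.543) and 0.21 after median centring (adjusted p = 0.575).

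Psme1 showed the opposite sign. Its signals were 2197, 2641 and 2234 with tamoxifen overload and 2046 and 1719 with vehicle overload, against 2630 for tamoxifen sham and 2443 for vehicle sham. The groups overlapped through tamoxifen overload replicate 2. The difference of -0.29 ± 0.15 (log2, SE) was not called (adjusted p = 0.229). With each array centred on its median it was -0.58 and was called (adjusted p = 0.0342).

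The replaced subunits were set beside these. Psmb5, the chymotrypsin-like subunit, had signals of 6960, 6131 and 7157 with tamoxifen overload and 7875 and 9575 with vehicle overload, against 6884 for tamoxifen sham and 6947 for vehicle sham. The vehicle overload arrays were the highest and the tamoxifen overload arrays lay around the sham level (difference 0.16 ± 0.16, log2, SE; adjusted p = 0.521). Psmb6, the caspase-like subunit, had 6859, 5747 and 6585 with tamoxifen overload and 7627 and 8869 with vehicle overload, against 7140 for tamoxifen sham and 7322 for vehicle sham. Here both sham arrays lay between the tamoxifen and the vehicle overload arrays (difference 0.03 ± 0.15, adjusted p = 0.935). Psmb7, the trypsin-like subunit, had 14801, 11034 and 16404 with tamoxifen overload and 16650 and 18458 with vehicle overload, against 22916 for tamoxifen sham and 19249 for vehicle sham. All 5 overload arrays lay below both sham arrays, as for 18.3% of all genes, and the difference of -0.49 ± 0.20 was not called (adjusted p = 0.124).

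The log2 ratio of each immunoproteasome subunit to its counterpart was taken on each array. Because signals of different probe sets are not comparable, only its shift between groups is read. The shift is the plain mean of the 5 overload arrays minus that of the 2 sham arrays, without the model's group and sex terms. It is therefore not on the same basis as the differences of single genes. For those the model gave 1.23 for Psmb8 and 0.16 for Psmb5, and 0.50 for Psmb9 and 0.03 for Psmb6. For Psmb10 and Psmb7 it gave 0.73 and -0.49. The shift of Psmb8 over Psmb5 was 1.34, a 2.53-fold change of the ratio, and that of Psmb10 over Psmb7 was 1.29, a 2.44-fold change. For both, all 5 overload arrays lay above both sham arrays. For Psmb9 over Psmb6 the shift was 0.82 (1.77-fold), and vehicle overload replicate 2 lay below both sham arrays. The exact two-sided permutation test over 21 splits gave p = 0.0952, 0.0952 and 0.286 for Psmb8, Psmb10 and Psmb9, and 0.143, 0.143 and 0.286 after adjustment over the 3 ratios. The two-sided p was taken as 2 times the smaller one-sided p. Defined in this way, the smallest p that the 21 splits allow is 0.0952, so this test cannot reach 0.05.

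**Figure D2:**
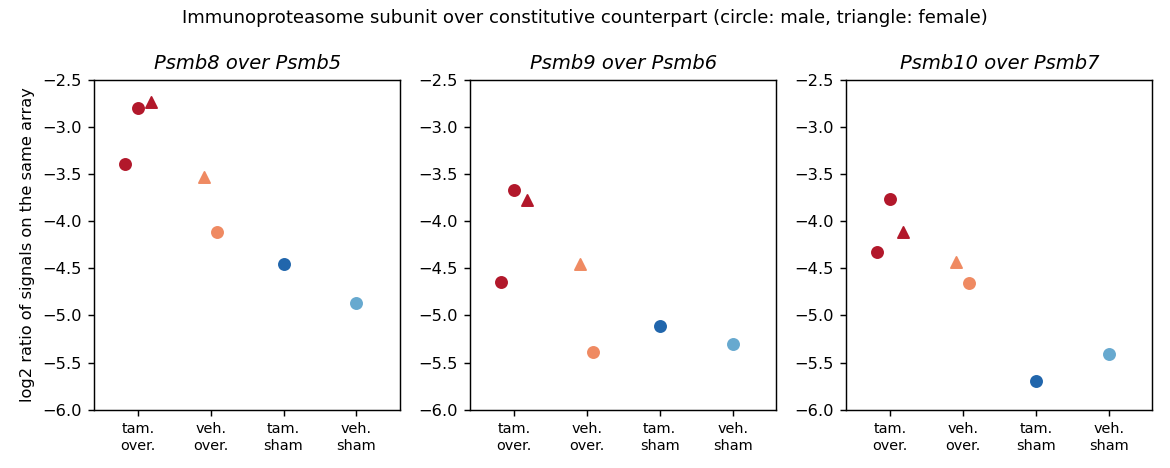
Log2 ratio of the signals of an immunoproteasome subunit and its constitutive counterpart on the same array, by group, with circles for males and triangles for females. The shift of overload above sham is 1.34 for Psmb8 over Psmb5, 0.82 for Psmb9 over Psmb6 and 1.29 for Psmb10 over Psmb7, and the height of a panel's points has no meaning of its own. These shifts are differences of plain means over arrays.

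Of the core particle's alpha subunits, Psma5 had the largest difference. Its signals were 8255, 6533 and 8062 with tamoxifen overload and 7065 and 9097 with vehicle overload, against 5369 for tamoxifen sham and 5979 for vehicle sham. The groups did not overlap, but the difference of 0.49 ± 0.18 (log2, SE) was not called (adjusted p = 0.0845). With quantile normalization it was 0.62 and was called (adjusted p = 0.0417). It was called as well without tamoxifen overload replicate 2 (0.61, adjusted p = 0.0216) and in the additive model (0.50, adjusted p = 0.0499). It was smaller with median centring (0.20, adjusted p = 0.569), without vehicle overload replicate 2 (0.28, adjusted p = 0.573) and with the mean of its probe sets (0.28, adjusted p = 0.408). Psma3 was lowest among the alpha subunits at -0.16 (adjusted p = 0.504), with signals of 11155, 10199 and 10704 for tamoxifen overload and 12120 and 13101 for vehicle overload, against 12671 for tamoxifen sham and 13568 for vehicle sham. The median over the 7 alpha genes was 0.08, close to the 0.07 of all genes tested. In the constitutive beta ring the median was 0.03. Its highest member was Psmb1 at 0.17 (adjusted p = 0.405), with 6265, 5864 and 6334 for tamoxifen overload and 7264 and 6783 for vehicle overload, against 5606 for tamoxifen sham and 5778 for vehicle sham; Psmb7 was its lowest.

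On the probe sets used here the 6 base ATPases lay within a narrow band, from -0.10 for Psmc2 (adjusted p = 0.680) to 0.21 for Psmc4 (adjusted p = 0.396). Psmc4 had signals of 6654, 7507 and 4491 with tamoxifen overload and 7147 and 8222 with vehicle overload, against 6309 for tamoxifen sham and 7172 for vehicle sham. Psmc2 had 10675, 9477 and 9642 with tamoxifen overload and 9898 and 11506 with vehicle overload, against 10615 for tamoxifen sham and 12388 for vehicle sham. In both the groups overlapped. A second probe set of Psmc6 gave -0.63, called over all probe sets (adjusted p = 0.0127), where the one used here gave 0.02.

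The remaining base genes, Psmd1, Psmd2 and Psmd4, had a median of -0.34, with no call. Psmd2, a scaffold that docks substrates, had signals of 6832, 5157 and 6509 with tamoxifen overload and 7051 and 8383 with vehicle overload, against 9117 for tamoxifen sham and 10417 for vehicle sham. All overload arrays lay below both sham arrays (difference -0.49 ± 0.18, log2, SE; adjusted p = 0.0830). Psmd4, a ubiquitin receptor, had 5142, 3907 and 5153 with tamoxifen overload and 5821 and 7005 with vehicle overload, against 5082 for tamoxifen sham and 6556 for vehicle sham, and its groups overlapped (-0.08, adjusted p = 0.813). Its probe sets disagreed: one with a mean near background (log2 5.22) gave 2.63, and with the mean of its probe sets Psmd4 was called at 0.88 (adjusted p = 0.0103).

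In the lid, which holds the deubiquitinating subunit Psmd14, Psmd13 alone was called. Psmd13 had signals of 1616, 1554 and 1587 with tamoxifen overload and 1668 and 2359 with vehicle overload, against 1343 for tamoxifen sham and 1180 for vehicle sham. The groups did not overlap, and vehicle overload replicate 2 stood well above the other overload arrays. The difference was 0.58 ± 0.16 (log2, SE; adjusted p = 0.0321), and a second probe set gave 0.54 (adjusted p = 0.0485 over all probe sets). Without vehicle overload replicate 2 it was 0.37 (adjusted p = 0.338), and without the vehicle sham array 0.31 (adjusted p = 0.362). The call was also lost without the tamoxifen sham array (0.86, adjusted p = 0.0542), with the mean of its probe sets (0.24, adjusted p = 0.575) and with median centring (0.29, adjusted p = 0.279). Psmd12 was the lowest lid gene at -0.13 (adjusted p = 0.536), with 5581, 5115 and 4748 for tamoxifen overload and 6187 and 6683 for vehicle overload, against 6466 for tamoxifen sham and 6697 for vehicle sham. The deubiquitinase gene Psmd14 was at 0.38 (adjusted p = 0.0893), with no overlap between the groups.

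The chaperones that assemble the regulatory particle's base had the highest median of any group of constitutive genes, 0.73 over 3 genes, 2 of them called. Psmd5 had signals of 1538, 1230 and 1281 with tamoxifen overload and 1602 and 1713 with vehicle overload, against 925 for tamoxifen sham and 770 for vehicle sham. Every overload array was above both sham arrays. The difference was 0.86 ± 0.15 (log2, SE; adjusted p = 0.00595). Within vehicle it was 1.15 (adjusted p = 0.0180), the sole constitutive call of that comparison, and within tamoxifen 0.57 (not called). The call was lost without vehicle overload replicate 2 (0.86, adjusted p = 0.0520), without the vehicle sham array (0.57, adjusted p = 0.0929) and with median centring (0.57, adjusted p = 0.0538).

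Psmd10, also known as gankyrin, had signals of 731, 632 and 641 with tamoxifen overload and 661 and 970 with vehicle overload, against 491 for tamoxifen sham and 467 for vehicle sham. No overload array reached down to a sham array. The difference was 0.73 ± 0.18 (log2, SE; adjusted p = 0.0231), and 0.53 without vehicle overload replicate 2 (adjusted p = 0.236). Leaving out either sham array also ended its call (adjusted p = 0.0647 without tamoxifen sham and 0.167 without vehicle sham), as did quantile normalization (0.61, adjusted p = 0.0631) and median centring (0.44, adjusted p = 0.149). Psmd9 had 548, 539 and 599 with tamoxifen overload and 670 and 678 with vehicle overload, against 502 for tamoxifen sham and 590 for vehicle sham (0.15, adjusted p = 0.575).

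Both activators outside the immunoproteasome were lower with overload, and 1 was called. Psme4 (PA200), a large cap known for acetylated histone degradation, had signals of 8040, 6239 and 7178 with tamoxifen overload and 7448 and 8263 with vehicle overload, against 11124 for tamoxifen sham and 12799 for vehicle sham. The groups were well apart. The difference was -0.65 ± 0.16 (log2, SE; adjusted p = 0.0234), and 2 further probe sets gave -0.79 and -0.62 (adjusted p = 0.0108 and 0.0209 over all probe sets). The call was lost in each fit without vehicle overload replicate 1, vehicle overload replicate 2, tamoxifen overload replicate 3 or either sham array, with differences from -0.73 to -0.63. It was also lost with the mean of its probe sets (-0.40, adjusted p = 0.0888), with male arrays alone (-0.64, adjusted p = 0.0687) and with quantile normalization (-0.47, adjusted p = 0.0607). Psme3, a nuclear activator, had 1027, 751 and 894 with tamoxifen overload and 1130 and 1165 with vehicle overload, against 1191 for tamoxifen sham and 1460 for vehicle sham (-0.39 ± 0.17, adjusted p = 0.154).

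**Figure D3:**
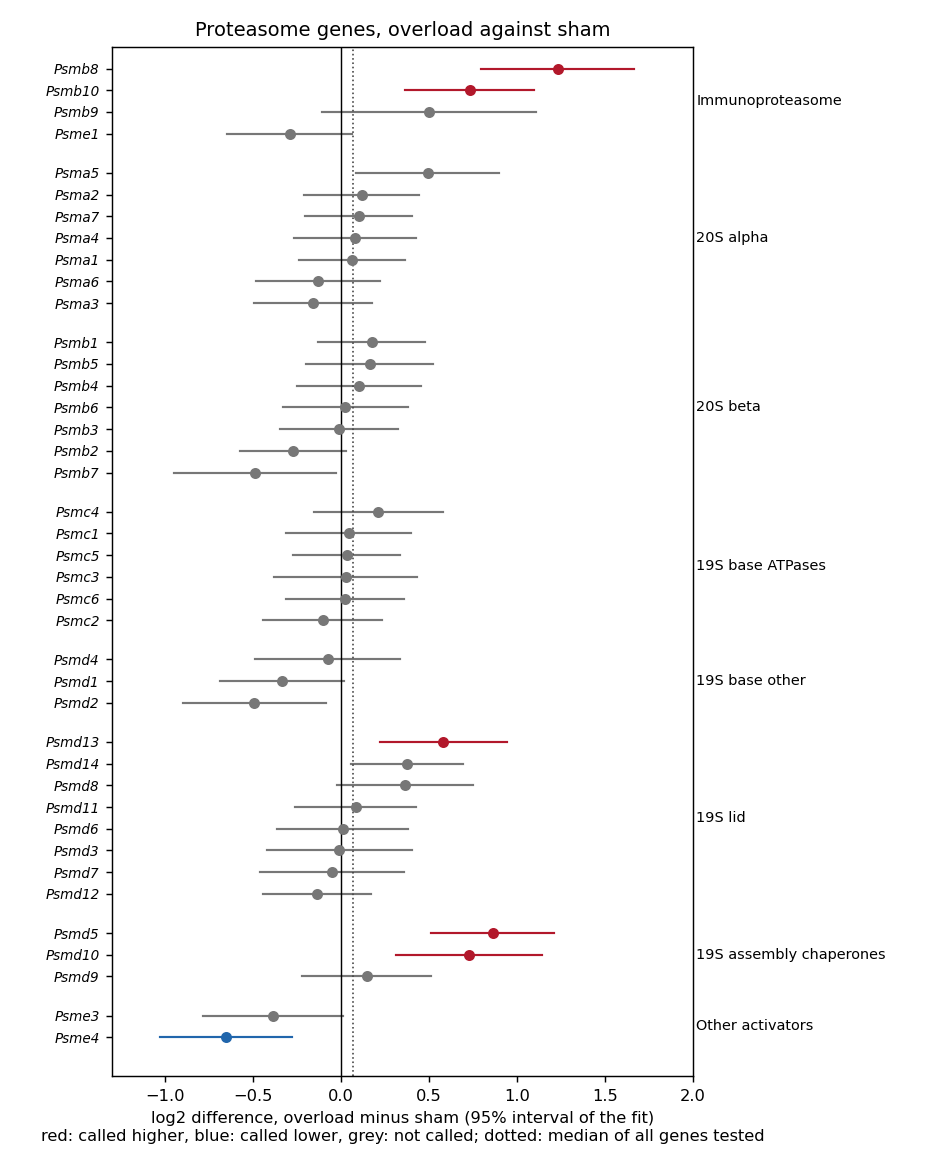
Log2 difference of overload minus sham with the 95% interval of the fit for the 40 genes above background, grouped by place in the proteasome, red where called higher, blue where called lower and grey where not called. Most constitutive genes lie near 0 and near the dotted median of all genes tested (0.07), while Psmb8, Psmb10, Psmd5, Psmd10 and Psmd13 lie to the right and Psme4 to the left.

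As a group the constitutive genes had a median difference of 0.03, against 0.07 for all genes. Among 408 genes in the same range of level (log2 12.2 to 12.9, the middle of the constitutive genes) the median was -0.20. Of those 408, 72 were called higher and 113 lower (45.3%), where 10.5% of the 38 constitutive genes were called. Differences within 0.5 of 0 were found for 34 of the 38 genes and for 9237 of all 18193 (50.8%). The 36 above background split into 7 with all overload arrays higher (19.4%), 6 with all lower (16.7%) and 23 that overlapped, where 23.1% of all genes had all overload arrays higher and 18.3% all lower. Within vehicle 1 of 38 was called, where 8.79% of all genes were (6.35% higher). Within tamoxifen none was, where 14.9% of all genes were (9.98% higher and 4.9% lower), and 6 of the 36 above background had an unadjusted p under 0.05 (16.7%, against 29.8% of all genes; limma).

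These directions depend on how arrays are scaled. Quantile normalization shifted the median of all genes by -0.13 and median centring by -0.29. The constitutive median relative to that of all genes was -0.04 as deposited, 0.21 after quantile normalization and -0.04 after centring. Constitutive calls were 3 higher and 1 lower as deposited, 4 higher and 0 lower after quantile normalization (Psmd5, Psmd13, Psma5 and Psmd14) and 0 higher and 4 lower after centring (Psme4, Psmb2, Psmd2 and Psme3). Among all genes called, 64.3% were higher as deposited, 60.9% after quantile normalization and 39.1% after centring. Psmb8 was called higher under all 3 scalings.

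The call counts also changed when single arrays were left out, which leaves fewer arrays for the test. A lost call therefore does not by itself show that a difference rests on that array. Without vehicle overload replicate 2, Psmd5 stayed at 0.86 and Psme4 went from -0.65 to -0.73. Psmd10 went from 0.73 to 0.53 and Psmd13 from 0.58 to 0.37. Of the constitutive genes, 0 were called without vehicle overload replicate 2 or without the vehicle sham array, 1 without the tamoxifen sham array and 7 without tamoxifen overload replicate 2. Of the immunoproteasome genes, 1 was called without vehicle overload replicate 2 and 1 without the tamoxifen sham array, and 2 in the other fits that left out an array. With variances that do not follow an intensity trend none of all 18193 genes was called, these 42 included (Psmb8 at adjusted p = 0.0756, Psmb10 at 0.108 and Psmd5 at 0.0986), with unchanged differences by construction.

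Markers of immune cells were read beside Psmb8 and Psmb10. All 10 macrophage and monocyte markers rose (median 1.92), under all 3 scalings, with a summed signal of 24557 to 33466 for tamoxifen overload and 20694 to 20916 for vehicle overload, against 8656 for tamoxifen sham and 4817 for vehicle sham. Aif1 and Fcgr1 (4.89 and 3.80, each above background on 6 of 7 arrays), Cd68 (2.77) and Ptprc (2.14) had the largest differences. Of 4 dendritic cell markers, Itgax rose by 2.18 and Xcr1 was below background on every array; their summed signal was 193 to 454 for overload, against 95.4 for tamoxifen sham and 82.8 for vehicle sham. Of 7 T and natural killer cell markers none was called and Cd3e was below background on every array (128 to 437 for overload, against 231 for tamoxifen sham and 177 for vehicle sham). Of 3 B cell markers none was called and Cd79a was below background on every array (83.8 to 147 for overload, against 121 for tamoxifen sham and 76.8 for vehicle sham). The part of any of these cells in the Psmb8 and Psmb10 results was not tested, and in whole muscle more cells of a type and more RNA per cell cannot be told apart.

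The muscle and stroma lists were read the same way. None of 8 myofibre markers was called, and all 8 had negative differences (median -0.33, Tnnt3 -0.45), with a summed signal of 212111 to 267855 for overload, against 302596 for tamoxifen sham and 315449 for vehicle sham. After quantile normalization 6 of the 8 were negative (median -0.04). Of 6 fibroblast markers 5 rose (Col1a1 3.0, Lum 2.60, Col3a1 2.00 and Dpt 1.28 the largest; summed signal 92898 to 116736 for overload, against 44241 for tamoxifen sham and 34695 for vehicle sham). Among 6 endothelial markers Vwf rose by 0.75 and Kdr fell by 0.75 (summed signal 4516 to 7050 for overload, against 5402 for tamoxifen sham and 4604 for vehicle sham), and of 5 satellite cell markers Fgfr4 rose by 1.55 (summed signal 274 to 1449 for overload, against 247 for tamoxifen sham and 467 for vehicle sham). Their part in the proteasome results was not tested either.

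Genes that work with the immunoproteasome were examined as a list. Of 13 measured genes of MHC class I presentation 6 rose and none fell (median 0.63, all genes 0.07). That is 46.2% called, where 22.9% of all genes were (14.7% higher and 8.16% lower). After quantile normalization 5 rose, where 2034 of all 18193 genes did. After median centring 2 rose, where 1740 of all genes did. The summed signal of the 13 was 40109 to 58693 for overload, against 31824 for tamoxifen sham and 25681 for vehicle sham. The largest differences were those of Pdia3, which helps load peptides (1.32, adjusted p = 0.00144), Tap1 (0.98, adjusted p = 0.0225), the transactivator Nlrc5 (0.97, not called, adjusted p = 0.0749) and the class I heavy chain H2-D1 (0.94, adjusted p = 0.0116). Tap1, whose start region overlaps that of Psmb9, had signals of 286, 378 and 393 with tamoxifen overload and 267 and 200 with vehicle overload, against 159 for tamoxifen sham and 108 for vehicle sham, with no overlap. Of 14 interferon signalling genes 3 rose and 2 fell (35.7% called, against 22.9% of all genes, median 0.66), or 2 and 3 after median centring. The summed signal of the 14 was 10229 to 12033 for overload. That range holds both sham arrays (10496 for tamoxifen sham and 11797 for vehicle sham). Irf8, a factor of myeloid cells, rose by 1.13, the receptor chain Ifnar2 by 1.12, and the kinase gene Jak2 fell by 0.98. Ifng itself was below background on all arrays.

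Partners and regulators of the constitutive proteasome were read as lists, beside the 22.9% of all genes called (14.7% higher and 8.16% lower). The assembly factors and partners were called at 23.5%, near that share. Of 17 assembly factors and partners 1 rose and 3 fell (median -0.01), 1 and 1 after quantile normalization, 0 and 5 after centring. Pomp, a chaperone of core particle assembly, had signals of 8423, 6700 and 7015 with tamoxifen overload and 8501 and 9904 with vehicle overload, against 5791 for tamoxifen sham and 5994 for vehicle sham (0.54 ± 0.15, log2, SE; adjusted p = 0.0396). All overload arrays were above both sham arrays, and the call of Pomp was lost with median centring (0.25, adjusted p = 0.445) and with the mean of its probe sets (0.54, adjusted p = 0.0625). The shuttle factor genes Ubqln4 and Ubqln1 fell by 0.99 and 0.48, and Ecpas, which binds the assembled proteasome, fell by 0.63.

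Of 14 regulators of proteasome genes 5 fell (35.7%, against 8.16% of all genes) and none rose (median -0.41). Falls were more frequent among brighter genes. They were called for 1454 of the 12470 genes with a mean above background, and for 113 of the 408 genes in the level range of the constitutive genes. After quantile normalization 5 regulators fell, where 1306 of all 18193 genes did. After centring 11 fell, where 2710 of all genes did. Maff fell by 1.85 (above background on 5 of 7 arrays), Foxo4 by 1.47 and Zfand5, which binds and stimulates the proteasome, by 1.04; Nfya, a subunit of the CCAAT-binding factor, was at 0.60 (not called, adjusted p = 0.0582). Zfand5 had signals of 9335, 7553 and 8766 with tamoxifen overload and 10406 and 10350 with vehicle overload, against 17817 for tamoxifen sham and 20613 for vehicle sham. Nfe2l1, the main activator of proteasome subunit genes, was at -0.20 (adjusted p = 0.505), and its groups overlapped. Of 9 ubiquitin and p97 genes Ubxn1 rose by 0.61 and Faf1 fell by 0.63 (22.2% called, against 22.9% of all genes, median 0.06), while after centring 2 fell and none rose.

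The second comparison asked whether tamoxifen changed the overloaded muscle, with 3 tamoxifen against 2 vehicle arrays. No gene of the 18193 was called (0%), at a lowest adjusted p of 0.198, while 1932 had an unadjusted p under 0.05 (limma). Among the 42 proteasome genes 11 had an unadjusted p under 0.05 (limma), where 10.6% of all genes did. These were 8 of the 36 constitutive genes above background, 2 of the 4 immunoproteasome genes, and Psma8, below background throughout. Every one of the 36 constitutive genes above background had a negative difference (median -0.29), and all 4 immunoproteasome genes had a positive one. Over all genes tested 47.2% were negative, and among the 408 genes in the same range of level (log2 12.2 to 12.9, the middle of the constitutive genes) 74.3% were.

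In 24 of the 36 constitutive genes (66.7%) all 3 tamoxifen overload arrays lay below both vehicle overload arrays. This held for 33.3% of the genes in that range of level and for 12.6% of all genes. The smallest p-values belonged to Psmb8, Psmd7 and Psmb3. Psmd7, a lid subunit that pairs with the deubiquitinase, had signals of 4138, 3710 and 4388 with tamoxifen overload, against 4691 and 6663 with vehicle overload (-0.48 ± 0.18, log2, SE; adjusted p = 0.429). Psmb3, a beta subunit without a protease site, had 5120, 4232 and 4294 with tamoxifen overload, against 5365 and 6226 with vehicle overload (-0.38 ± 0.14, adjusted p = 0.441). Neither gene's arrays overlapped between the treatments.

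Psmb8 was at 0.55 ± 0.19 (log2, SE; adjusted p = 0.420), Psmb9 at 0.62, Psme1 at 0.33 and Psmb10 at 0.17, with adjusted p up to 0.700. Psme1 was the only one of them whose tamoxifen overload arrays all lay above the vehicle overload arrays, as for 16.9% of all genes. The macrophage markers were also positive in 10 of 10 (median 0.54, none called). So were the endothelial (6 of 6, median 0.35) and fibroblast markers (6 of 6, 0.20). T and natural killer cell markers were positive in 6 of 7 (0.83) and MHC class I genes in 12 of 13 (0.31). Dendritic cell markers were split (2 of 4 positive), and satellite cell markers were negative in 5 of 5 (-1.35). The myofibre markers were negative in 8 of 8 (median -0.19, none called), or in 6 of 8 after quantile normalization. Their part in these differences was not tested.

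**Figure D4:**
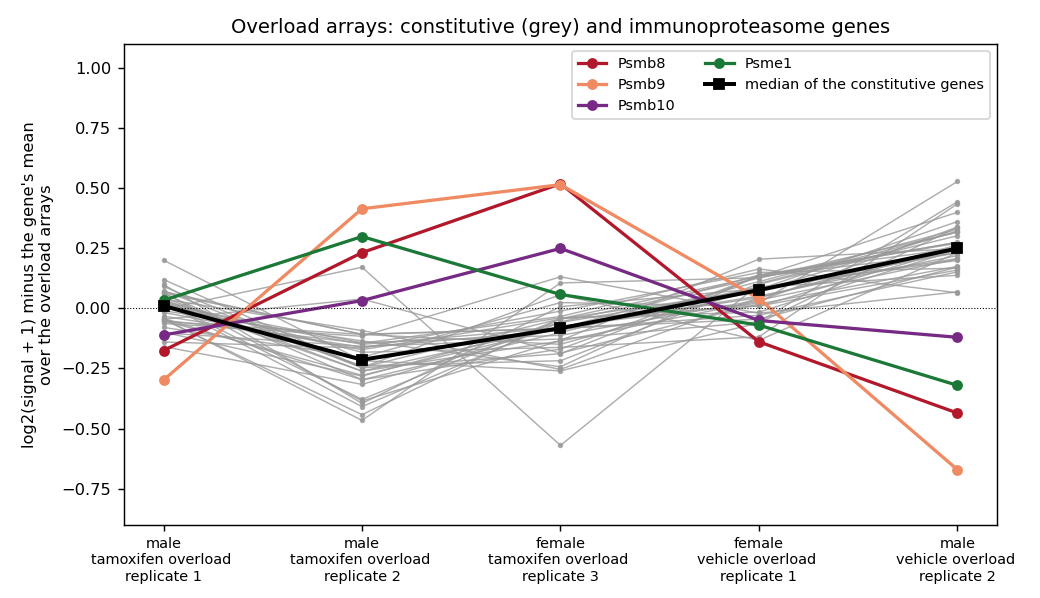
Log2(signal + 1) on each overload array minus the gene's mean over the 5 overload arrays, in grey for the 36 constitutive genes, black for their median and colours for the immunoproteasome genes. The constitutive genes are highest on vehicle overload replicate 2 (34 of 36) and lowest on tamoxifen overload replicate 2 (30 of 36), while all 4 immunoproteasome genes are lowest on vehicle overload replicate 2.

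The pattern leaned on 2 arrays. Vehicle overload replicate 2, a male, was the highest of the 5 overload arrays in 34 of 36 constitutive genes, against 42.9% of genes in that range of level and 27.3% of all genes. Tamoxifen overload replicate 2 was the lowest in 30 of 36, against 52.2% and 25.2%. Without vehicle overload replicate 2 the median was -0.16, with 33 of 36 negative, and without tamoxifen overload replicate 2 it was -0.22, with 34 negative. After quantile normalization 34 were negative (median -0.22), where 52.7% of all genes were. All 4 immunoproteasome genes remained positive in each of these fits.

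The third comparison asked whether the overload response differed between tamoxifen and vehicle, as an interaction. No gene of the 18193 was called (0%), at a lowest adjusted p of 0.245, and 1021 had an unadjusted p under 0.05 (limma). Of the 40 proteasome genes above background none had an unadjusted p under 0.05. The smallest p among them were those of Psmd5 (-0.58 ± 0.28, adjusted p = 0.920) and Psmd13 (-0.55 ± 0.29, adjusted p = 0.933), whose signals by array are given with the chaperones and the lid. Psma8 had the smallest p of all 42 but was below background throughout. The interaction of Psmb8 was 0.14 with a 95% interval from -0.65 to 0.93, an interval that holds differences in either direction.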

How the data were processed

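The deposited values are array intensities (signals) on a linear scale. On each array their mean without the lowest and highest 2% is 500, which shows that the authors set each array to one common mean. Partek is named, without a version, in the submitters' processing notes; the summary of probes into probe sets was not given in the sources used here. Of 45101 probe sets, 34945 had 1 symbol, 932 several and 9160 none, and 64 were controls; 34741 matched RefSeq by Entrez identifier. Values were taken as log2(signal + 1). A linear model of 4 groups and sex was fitted to 18193 genes with limma 3.58.1 in R 4.3.3 (with data.table, version 1.17.8), with an intensity trend (2 residual and 5.95 prior degrees of freedom), and tested on simulated data. Figures, ratios and motif searches used Python 3.11.15, pandas 2.3.3, scipy 1.17.1 and matplotlib 3.10.9.

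The members, 13 context lists (of pathways and cell types) and tests were chosen with earlier results of these data known. Named in full were the immunoproteasome genes, their counterparts, the highest and lowest gene of each sub-complex, called genes, the 3 smallest p where none was called, and up to 4 genes of each list. The model was also run with no sex term, with male arrays alone, and with quantile normalization, median centring, a pseudocount of 16, genes above background alone, averaged probe sets, no intensity trend, a fold minimum of 1.5, an additive model, overload arrays alone, or any single array left out. Where a sham array was left out, overload against sham came from the additive model, and so equals the difference within the treatment that still has a sham array. Where a female array was left out, the sex term took up the other female array, and the differences equal those of male arrays alone.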

Additional observations from a re-analysis of the deposited data

Results flagged for a closer look

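For Psmb6 and Psmc6 both vehicle overload arrays lay above the vehicle sham array, while all 3 tamoxifen overload arrays lay below the tamoxifen sham array. The interaction, the overload difference with tamoxifen minus that with vehicle, was -0.34 (log2) for Psmb6 and -0.28 for Psmc6. The test of that difference called neither gene (limma, adjusted over 18193 genes). Such opposite moves were seen in 2 of 40 proteasome genes above background (5%) and in 775 of 12470 genes with a mean above background (6.21%). Each sham side is 1 array.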

How the results depend on the processing

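No paired analysis was possible because the replicate numbers only name the arrays, and each sham group has 1. Of the constitutive genes, overload against sham called 4, but 0 without an intensity trend and 0 to 7 when an array was left out. Within vehicle 1 was called, but 0 with median centring or no trend, 2 with averaged probe sets, 3 among genes above background alone, and 0 to 4 when an array was left out. Within tamoxifen 0 were called, but 1 without the sex term or among genes above background alone, and 0 to 2 when an array was left out. Of the immunoproteasome genes, overload against sham called 2, but 0 without the trend and 1 to 2 when an array was left out. Within vehicle 1 was called, but 0 with male arrays alone, quantile normalization, centring, a pseudocount of 16, the mean of probe sets or no trend, and 0 to 1 when an array was left out. Within tamoxifen 2 were called, but 1 with male arrays alone, quantile normalization, centring or the mean of probe sets, 0 without the trend, and 1 to 2 when an array was left out. Psmd4 reversed with the mean of its probe sets, to 0.88 (adjusted p = 0.0103) for overload against sham and 1.24 (adjusted p = 0.0246) within vehicle, through the dim probe set described with the base genes. The cause of the other changes was not tested. Tamoxifen against vehicle and the interaction called 0 members under every alternative run. The shift of the ratio ranged from 1.03 to 1.55 for Psmb8 over Psmb5, from 0.45 to 1.07 for Psmb9 over Psmb6 and from 0.90 to 1.43 for Psmb10 over Psmb7. Of the 40 genes above background, 25 kept their call or lack of one for overload against sham under all 17 alternatives, and 40 for tamoxifen against vehicle. The alternatives are not independent, as leaving out either female array repeats the differences of male arrays alone. Psmb8 lost its call for overload against sham in 1 of 17 (no trend). With 1 array per sham group and 2 residual degrees of freedom, small differences could not be detected.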

Other observations

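Beside the probe set that represents each gene, 46 other probe sets name a proteasome gene, and 32 of them, of 19 genes, lay above background on all arrays. For overload against sham 1 of the 32 was called higher (Psmd13) and 4 lower, with tests over 34945 probe sets. The 4 were 2 of Psme4 and 1 each of Psmc6 and Psma6. The share called over all probe sets was not taken. Of all genes, each on the probe set that represents it, 14.7% were called higher and 8.16% lower. The Psma6 probe set gave -0.63 (adjusted p = 0.0361), where the brighter one used for Psma6 gave -0.13. For tamoxifen against vehicle in overloaded muscle 26 of the 32 had a negative difference (median -0.25) and none was called.

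The members lie on 16 chromosomes, with 8 on chromosome 11. Besides the pair Psmb8 and Psmb9, which flank Tap1 on chromosome 17, Psmb5 and the thymus subunit Psmb11 are direct neighbours on chromosome 14. Psmb5 had signals from 6131 to 9575 over the 7 arrays, while Psmb11 lay below background on all of them.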
